A study of Bos taurus with 27 samples.

Results

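The genes of the IGF axis, the insulin receptor and the EGF receptor family were followed in the colon of newborn calves, a set chosen because colostrum carries growth factors. A list of 10 genes was set (IGF1R, IGF2R, INSR, IGF2, IGFBP3, IGFBP4, IGFBP5, EGFR, ERBB2 and ERBB3), and a gene was kept when the gene tables of the study paired its symbol with a single Ensembl identifier. This held for 7 of the 10 genes, among 24616 genes in the count table, and IGF1R, IGFBP5 and EGFR are not analysed here. The 7 genes were IGF2 (ENSBTAG00000013066), IGF2R (ENSBTAG00000002402), INSR (ENSBTAG00000012687), IGFBP3 (ENSBTAG00000003994), IGFBP4 (ENSBTAG00000008611), ERBB2 (ENSBTAG00000021798) and ERBB3 (ENSBTAG00000010444). The calves were 27 Holstein males, sampled 51 h after birth. Their first colostrum came right away (TRT0, 0 h), after a delay of 6 h (TRT6) or after a delay of 12 h (TRT12), and 9 calves made up each treatment. In each treatment 4 calves had been born to primiparous heifers (H) and 5 to multiparous cows (C), by the sample table of the study, which gave the 6 groups TRT0_H, TRT0_C, TRT6_H, TRT6_C, TRT12_H and TRT12_C. All calves received colostrum, so no group shows a colon that was never fed it.

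IGF2 is a growth factor of fetal and early postnatal tissue that signals through the type 1 IGF receptor and through an isoform of the insulin receptor, INSR. IGF2R, the cation-independent mannose 6-phosphate receptor, binds IGF2 at the cell surface and carries it to the lysosome, while IGFBP3 and IGFBP4 are secreted proteins that hold IGFs and limit their access to receptors. ERBB2 and ERBB3 are partners of the EGF receptor: ERBB3 binds neuregulins and has little kinase activity of its own, and ERBB2 has no known ligand and signals as the partner in a dimer.

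The gene counts summed to between 1163791 and 4202593 per calf (median 2215402), and every value below is in CPM, the count of a gene relative to all gene counts of its calf. These sums are far below the reads per sample that the study reports, and the reason was not examined. The library names placed 11 calves in lane 6, 11 in lane 7 and 5 in lane 1 of another run. Lane 1 held no TRT0_H, TRT6_H or TRT12_C calf and lane 6 held no TRT0_C calf, so lanes and groups overlapped in part. Marker genes of the tissue were read as a description. An identifier was found for 8 of 8 fibroblast, 8 of 8 smooth muscle and 6 of 8 epithelium markers. None of these was at 0 in any calf, the lowest being 78.7 CPM for an epithelium marker. Of 3 enteric neuron and glia markers with an identifier, 2 were at 0 in some calf. Identifiers came from the study's lists of core genes, at 1 CPM or more in all calves, and of network genes. A marker with an identifier was thus likely to be above 0 beforehand, and its presence does not test the tissue label. All 351 pairs of libraries differed in their counts. The tissue was taken in bulk, so a lower value from fewer cells of a type and one from less RNA per cell cannot be told apart.

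All 7 genes passed the filter for low counts, 1 CPM in at least 5 of 9 calves of each treatment, which 13943 genes met. Their identifiers came from the study's lists of genes expressed in the colon, so passing was close to given. The lowest count behind any value was 44, for INSR in the calf TRT12_H 1. Among the 7 genes IGF2 varied most between calves. IGF2 was at 512.6 ± 184 CPM (SD, n = 27), a coefficient of variation of 35.8%, with calves from 280.1 to 868.3 CPM. Counting error alone would give IGF2 a coefficient of variation of 3.08%. The other 6 genes had coefficients of variation from 15.4% for ERBB2 (150.0 ± 23.1 CPM) to 20.1% for IGFBP4 (214.8 ± 43.3 CPM). INSR (68.2 ± 11.7 CPM) and ERBB3 (452.3 ± 80.7 CPM) lay between these, at 17.2% and 17.8%. IGF2R was at 206.6 ± 34.2 CPM and IGFBP3 at 126.8 ± 23.3 CPM (SD, n = 27 each). These means were not ranked, since reads per gene grow with transcript length and no transcript lengths were used. edgeR's biological coefficient of variation was 0.30 for IGF2, above that of 83.0% of the genes tested, against a median of 0.19 over all genes. That of IGF2R (0.16) and INSR (0.16) exceeded 29.4% and 28.5% of the genes tested.

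**Figure D1:**
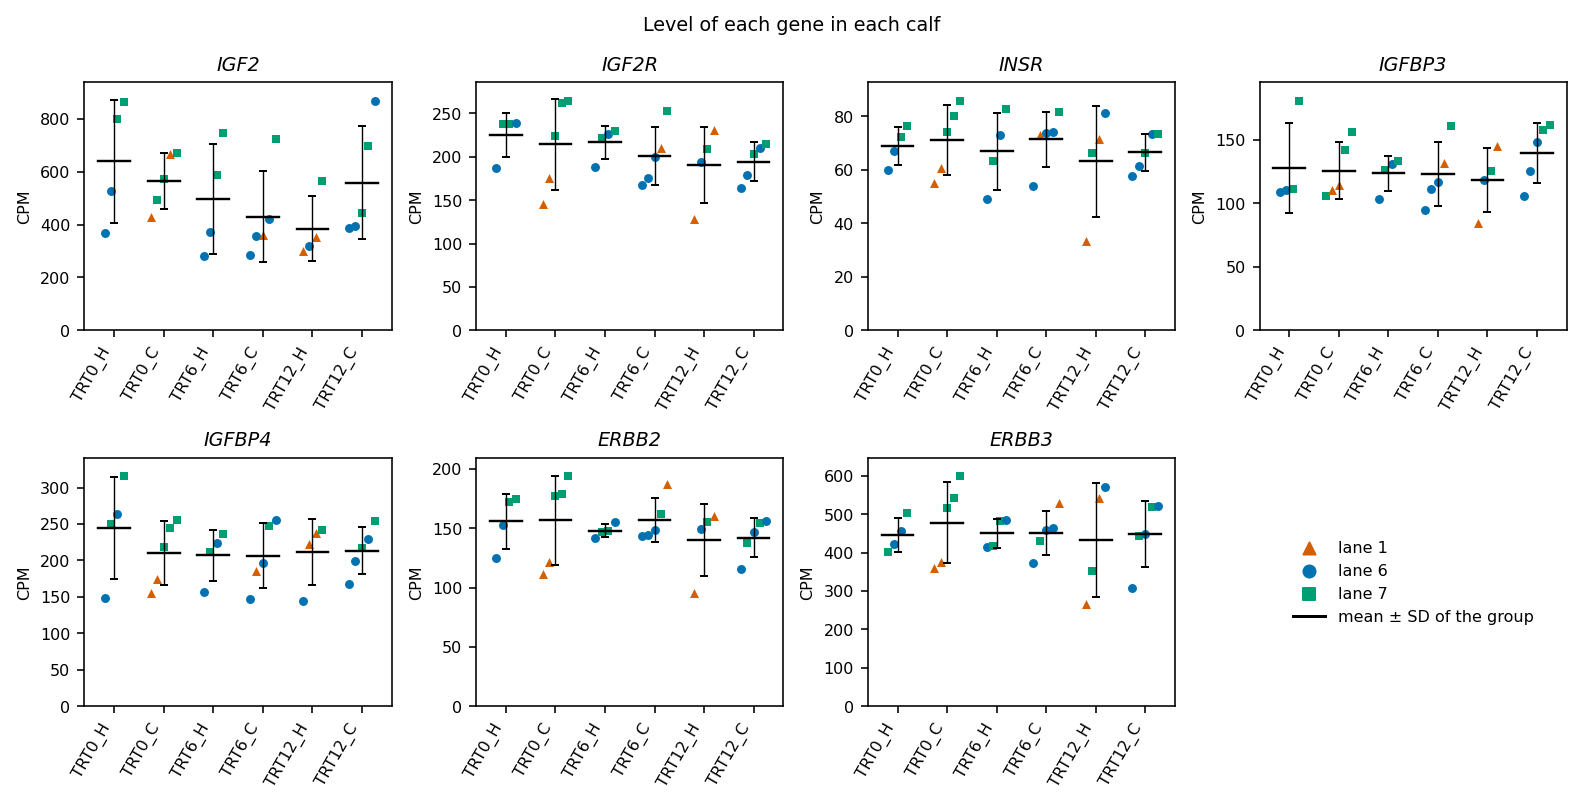
Level in CPM of each of the 7 genes in each of the 27 calves (points, with symbols for the sequencing lane), by treatment and dam parity, with the mean and SD of each group. The groups overlap in every panel, IGF2 spreads most, from 280.1 to 868.3 CPM, and the calf TRT12_H 1 of lane 1 is the lowest for INSR at 33.5 CPM.

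The first question was whether the hour of first colostrum moved these genes. In the 3 comparisons of treatments, 0 of the 7 genes passed an adjusted p of 0.10 with a fold change of 1.2 in edgeR's quasi-likelihood test, and DESeq2 also called 0. Over all 13943 genes the share called in each of these was 0%. At an unadjusted p under 0.05, 0 of the 7 genes passed in any of the 3 comparisons, against 3.14% of all genes in TRT6 vs. TRT0, 9.37% in TRT12 vs. TRT0 and 3.14% in TRT12 vs. TRT6. The median log2 fold change of the 7 genes was -0.01 for TRT6 and -0.07 for TRT12, each against TRT0, and that of all genes tested was 0.01 and -0.00393. A slope over the hours to first colostrum called 0 of the 7 genes and 0% of all genes, and 0 of the 7 passed at an unadjusted p under 0.05, as 9.62% of all genes did.

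IGF2, the only ligand among the 7 genes, had the largest log2 fold changes of TRT6 and TRT12 against TRT0. In TRT0 it ranged from 368.4 to 862.5 CPM with a median of 571.9. In TRT6 the range was 280.1 to 743.9 CPM and the median 373.2, and in TRT12 it was 299.0 to 868.3 CPM with a median of 393.7. The ranges overlapped over most of their length, and the highest TRT12 calf exceeded the highest TRT0 calf. edgeR gave a log2 fold change of -0.36 (SE 0.20, adjusted p = 0.99998) for TRT6 against TRT0 and of -0.32 (SE 0.20, adjusted p = 0.646) for TRT12 against TRT0. The 95% confidence intervals ran from a fold of 0.586 to 1.04 and from 0.603 to 1.07. The lanes were filled unevenly by treatment, as 5 of 9 TRT0 calves were in lane 7 and 3 of 9 in each of the other treatments. Within lane 7 the mean was 679.4 CPM in TRT0 (n = 5), 685.3 in TRT6 (n = 3) and 568.5 in TRT12 (n = 3). Within lane 6 it was 447.4 CPM in TRT0 (n = 2), 342.9 in TRT6 (n = 5) and 491.7 in TRT12 (n = 4). In lane 1, where the TRT0 and TRT6 calves had C dams and the TRT12 calves H dams, it was 546.7 CPM in TRT0 (n = 2), 360.0 in the single TRT6 calf and 326.4 in TRT12 (n = 2). So the mean of TRT6 was lower than that of TRT0 in lanes 1 and 6 and not in lane 7, and that of TRT12 in lanes 1 and 7 and not in lane 6. With lane as a further term the log2 fold changes were -0.31 and -0.22. The 8 fibroblast markers were also lower in TRT6 than in TRT0 in their fitted values, with a median log2 fold change of -0.28 against 0.01 over all genes. None of the 8 was called by edgeR, and 2 of 8, DCN and LUM, had an unadjusted p under 0.05. Their summed level was 10795 to 19783 CPM in TRT0 and 7940 to 17852 in TRT6, and their part in the IGF2 difference was not tested.

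IGF2R, the clearance receptor, also had its highest mean in TRT0, with smaller differences than IGF2. Its range was 145.8 to 264.9 CPM in TRT0 (median 237.4), 167.0 to 252.4 in TRT6 (median 209.7) and 128.6 to 231.2 in TRT12 (median 203.8). These ranges overlapped, and the log2 fold change of -0.14 in TRT12 vs. TRT0 (SE 0.10, edgeR adjusted p = 0.704) was within the spread between calves. Within lane 7 the 5 TRT0 calves, at 223.7 to 264.9 CPM, lay above the 3 TRT12 calves, at 203.8 to 215.3 CPM. These CPM are without edgeR's TMM scaling factors, which the fold change uses. The factor was 1.09 for the lowest of these TRT0 calves, TRT0_C 2, and 0.956 for the highest of these TRT12 calves, TRT12_C 3. CPM divided by the factors overlapped between the 2 groups. In lane 6 the 2 TRT0 calves, at 187.2 and 238.5 CPM, overlapped with the 4 TRT12 calves, at 163.9 to 210.7 CPM. In lane 1 the 2 TRT0 calves, at 145.8 and 175.9 CPM, lay between the 2 TRT12 calves, at 128.6 and 231.2 CPM, and the mean was higher in TRT12 (179.9 against 160.8 CPM). INSR, the insulin receptor, ranged from 55.1 to 85.9 CPM in TRT0 (median 72.3), 49.0 to 82.8 in TRT6 (median 73.0) and 33.5 to 81.4 in TRT12 (median 66.4). Against TRT0, INSR had a log2 fold change of 0.01 (SE 0.12) in TRT6 and -0.07 (SE 0.12) in TRT12.

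Neither binding protein differed between treatments beyond the spread between calves. IGFBP3 ranged from 105.4 to 180.8 CPM in TRT0 (median 111.6), 94.9 to 160.8 in TRT6 (median 126.5) and 84.4 to 161.6 in TRT12 (median 125.6). IGFBP4 ranged from 148.8 to 315.4 CPM in TRT0 (median 244.5), 147.7 to 255.7 in TRT6 (median 211.2) and 144.9 to 253.7 in TRT12 (median 222.5). For both genes the treatments overlapped almost entirely. In TRT12 vs. TRT0 the log2 fold change was 0.07 (SE 0.13) for IGFBP3 and -0.05 (SE 0.12) for IGFBP4, the edgeR adjusted p being 0.919 and 0.931. In TRT6 vs. TRT0 it was -0.01 (SE 0.14) for IGFBP3 and -0.09 (SE 0.12) for IGFBP4.

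Over all lanes, neither ERBB2 nor ERBB3 differed between treatments beyond the spread between calves. ERBB2 ranged from 111.2 to 193.6 CPM in TRT0 (median 172.0), 141.5 to 187.3 in TRT6 (median 147.6) and 95.1 to 160.2 in TRT12 (median 149.2). ERBB3 ranged from 359.0 to 598.9 CPM in TRT0 (median 457.2), 373.0 to 529.3 in TRT6 (median 458.7) and 265.5 to 572.3 in TRT12 (median 449.6). The medians of ERBB3 lay within 10 CPM of each other and the ranges of both genes overlapped. Against TRT0, ERBB3 had a log2 fold change of 0.0060 (SE 0.15) in TRT6 and -0.02 (SE 0.15) in TRT12. The values of ERBB2 were 0.01 (SE 0.11) and -0.10 (SE 0.11). Within lane 7 ERBB2 was higher in TRT0 (172.0 to 193.6 CPM, n = 5) than in TRT6 (146.8 to 162.0, n = 3) and TRT12 (137.5 to 155.2, n = 3). After TMM scaling TRT0 overlapped with both in that lane. The TRT0 calves lay within the TRT12 range in lane 6 (124.5 to 152.4 against 115.3 to 155.6 CPM) and in lane 1 (111.2 to 121.1 against 95.1 to 160.2 CPM).

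Dam parity gave a similar picture. In C vs. H 0 of the 7 genes were called by edgeR or by DESeq2, as were 0% of all genes by edgeR, and 0 of the 7 had an unadjusted p under 0.05 in edgeR, against 2.52% of all genes. The log2 fold change lay between -0.12 for IGFBP4 (SE 0.10) and 0.02 for IGFBP3 (SE 0.11). For IGF2, calves of H dams had 280.1 to 862.5 CPM (median 449.8, n = 12) and calves of C dams 284.4 to 868.3 CPM (median 444.9, n = 15). Its log2 fold change was -0.01 (SE 0.17). A p that misses the threshold does not show that levels are equal, so the intervals are given as well. Each covers a single gene in a single comparison, is not adjusted for the number of intervals and comes from a fit without lane. Over the 3 treatment comparisons and C vs. H, the 95% intervals of all genes but IGF2 stayed between a fold of 0.781, the lower bound of IGF2R, and 1.29, the upper bound of IGFBP3. Those of IGF2 ran from 0.586 to 1.37.

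**Figure D2:**
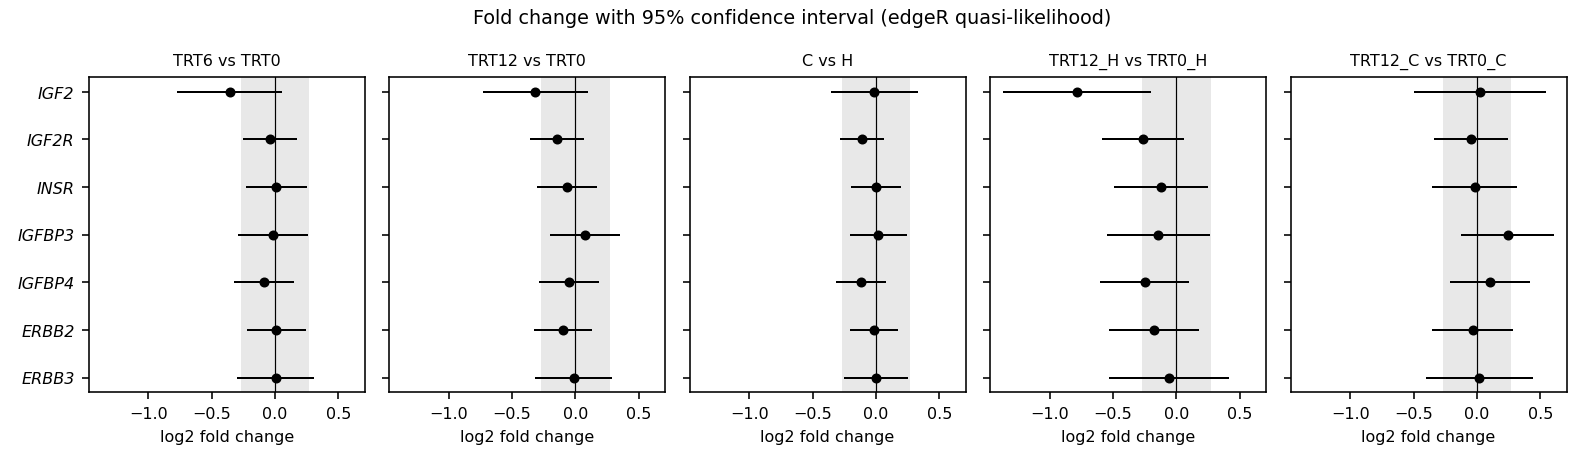
Log2 fold change with 95% confidence interval of each gene in 5 comparisons (edgeR quasi-likelihood, all 27 calves in the fit), with fold changes under 1.2 in either direction shaded. Of the intervals drawn, that of IGF2 in TRT12_H vs. TRT0_H is the one that does not include 0, at -1.37 to -0.20.

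The 9 comparisons within parity or within treatment were then read for the same genes. None of the 7 genes was called in any of the 9 by edgeR or DESeq2, where 0% of all genes were called by edgeR. The study's own edgeR analysis reported RGS2 or CCL14 as different in some of these comparisons, and neither is among the 7 genes. At an unadjusted p under 0.05 edgeR gave 1 gene in 1 comparison, IGF2 in TRT12_H vs. TRT0_H, where 3.56% of all genes passed that level. The 4 TRT0_H calves had IGF2 at 368.4, 526.4, 799.4 and 862.5 CPM. The 4 TRT12_H calves had 299.0, 316.9, 353.7 and 565.9 CPM. In TRT12_H, 3 of 4 calves were below the lowest TRT0_H calf, and the highest was above 2 of the TRT0_H calves. By edgeR the difference was -0.79 on the log2 scale (SE 0.29, unadjusted p = 0.0100, adjusted p = 0.99997), and an exact permutation test of the CPM values gave a two-sided p of 0.114. In lane 6 the single TRT12_H calf (316.9 CPM) was below both TRT0_H calves (368.4 and 526.4), and in lane 7 the single TRT12_H calf (565.9 CPM) was below both as well (799.4 and 862.5). The other 2 TRT12_H calves were in lane 1, which held no TRT0_H calf.

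The same comparison was read in calves of C dams. The 5 TRT0_C calves had 427.9, 493.7, 571.9, 665.5 and 669.4 CPM, and the 5 TRT12_C calves had 387.8, 393.7, 444.9, 694.7 and 868.3 CPM. The TRT12_C values were thus on both sides of the TRT0_C range, with a log2 fold change of 0.03 (SE 0.25). TRT6_C differed from TRT0_C by -0.37 on the log2 scale (SE 0.25), with its calves at 284.4, 355.3, 360.0, 421.3 and 724.7 CPM. The TRT6_H calves had 280.1, 373.2, 587.3 and 743.9 CPM, and the log2 fold change in TRT6_H vs. TRT0_H was -0.35 (SE 0.29). Whether the effect of treatment on IGF2 differed between parities was tested as an interaction in edgeR, which gave an unadjusted p of 0.0616 and an adjusted p of 0.999. The unadjusted edgeR p was 0.0352 with lane as a further term (adjusted p = 0.895), 0.0398 with no filter on low counts and 0.163 without TMM factors. It ranged from 0.0188 to 0.150 with each calf left out. The interaction called 0 of the 7 genes, while 0.00717% of all genes, 1 gene, passed, and 0 of the 7 had an unadjusted p under 0.05, against 2.66% of all genes. In TRT12_C vs. TRT12_H the log2 fold change of IGF2 was 0.54 (SE 0.27, adjusted p = 0.9998 by edgeR). The comparisons TRT12_H vs. TRT0_H and TRT12_C vs. TRT12_H share the TRT12_H calves.

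Among the other 6 genes the largest log2 fold change in these 9 comparisons was that of IGFBP4 in TRT0_C vs. TRT0_H. IGFBP4 was at 148.8, 249.9, 263.3 and 315.4 CPM in TRT0_H and at 155.3, 174.1, 218.9, 244.5 and 256.1 CPM in TRT0_C. The groups overlapped, with 3 of 4 TRT0_H calves above 4 of 5 TRT0_C calves. The difference was -0.31 on the log2 scale (SE 0.16, edgeR adjusted p = 0.9999). IGF2R had its own largest difference in the same comparison as IGF2, TRT12_H vs. TRT0_H, at -0.26 on the log2 scale (SE 0.16, edgeR adjusted p = 0.99997). Its TRT0_H calves had 187.2, 237.4, 237.6 and 238.5 CPM and its TRT12_H calves 128.6, 194.2, 209.0 and 231.2 CPM, so 3 of the 4 TRT0_H calves lay above all 4 TRT12_H calves. After TMM scaling this no longer held, as TRT0_H 1 (237.6 CPM, factor 1.05) then fell below TRT12_H 4 (231.2 CPM, factor 0.971). For IGFBP3 the largest was 0.26 (SE 0.19) in TRT12_C vs. TRT12_H, the C calves being at 106.1 to 161.6 CPM and the H calves at 84.4 to 145.4 CPM. INSR, ERBB2 and ERBB3 stayed between -0.18 and 0.06 on the log2 scale in all 13 comparisons.

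The sequencing lane was examined in the same way, since its 3 levels were filled unevenly by the groups. In a fit with treatment, parity and lane, edgeR called 0 of the 7 genes for lane at an adjusted p of 0.10, against 2.41% of all genes, and IGF2 was the 1 of 7 with an unadjusted p under 0.05, against 15.4% of all genes. IGF2 was at 444.9 to 862.5 CPM in lane 7 (median 669.4, n = 11), 280.1 to 868.3 in lane 6 (median 373.2, n = 11) and 299.0 to 665.5 in lane 1 (median 360.0, n = 5). Lane 7 thus had the higher values, and the highest single calf, TRT12_C 4, was in lane 6. The unadjusted p was 0.00375 and the adjusted p 0.117. This stood close to the threshold: the adjusted p fell to 0.0536 in DESeq2 and 0.0574 in edgeR's likelihood ratio test. It was also under 0.10 without the calf TRT0_C 5 (0.0807), TRT12_C 3 (0.0799), TRT12_C 4 (0.0190) or TRT12_H 4 (0.0899), and without TRT12_H 4 IGF2R was called as well (0.0736). Without TRT12_H 4 the unadjusted edgeR p of IGF2 was 0.00655, higher than with all calves, although its adjusted p was lower. The share of all genes called for lane was counted only in the main fit, so these calls have no such share beside them. Over all alternatives tried the adjusted p of IGF2 for lane ranged from 0.00287, with no filter on low counts, to 0.224. For the other 6 genes the unadjusted p for lane lay between 0.0521 for IGFBP4 and 0.717 for ERBB3. In CPM, before TMM scaling, IGF2R was at 203.8 to 264.9 in lane 7, 163.9 to 238.5 in lane 6 and 128.6 to 231.2 in lane 1. Inside TRT0_C, a group singled out after its values were seen, 5 of the 7 genes were divided by lane. The 2 TRT0_C calves of lane 1 had IGF2R at 145.8 and 175.9 CPM and ERBB3 at 359.0 and 376.0 CPM, while the 3 of lane 7 had IGF2R at 223.7 to 264.9 CPM and ERBB3 at 517.4 to 598.9 CPM. ERBB2 (111.2 and 121.1 against 177.4 to 193.6 CPM) and INSR (55.1 and 60.6 against 74.4 to 85.9 CPM) were divided in the same way. IGFBP4 was as well, at 155.3 and 174.1 against 218.9 to 256.1 CPM, whereas IGF2 and IGFBP3 overlapped. The summed level of the fibroblast markers was 10795 to 19783 CPM in lane 7, 7940 to 18541 in lane 6 and 7978 to 11885 in lane 1. Of the 8 markers 1, COL1A1, was called for lane, 4 had an unadjusted p under 0.05, and POSTN, DCN and LUM had unadjusted p of 0.828, 0.751 and 0.386 in edgeR. In TRT0_H the summed level was 10932 to 19783 CPM, in TRT12_H 7978 to 13909 and in TRT12_C 8974 to 18541. In TRT12 vs. TRT0, which takes calves of both parities, 0 of the 8 were called by edgeR. Their median log2 fold change there was -0.17, against -0.00393 over all genes. The part of lane and of tissue makeup in the IGF2 differences was not tested.

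Levels were next set beside the summed CPM of marker genes, calf by calf, for 6 cell types with at least 3 markers measured, which gave 42 relations. Of these, 5 passed an adjusted p of 0.05 (Benjamini-Hochberg over the 42, two-sided permutation test with 100000 resamples), all positive. How often other genes would pass with these sums was not computed. IGF2 rose and fell with the summed fibroblast markers, with Pearson's r = 0.85 and Spearman's rho = 0.85 over 27 calves. That sum is mostly collagen RNA: COL3A1, COL1A1 and COL1A2 had means of 4616, 3325 and 2432 CPM and COL6A3 of 1110. POSTN, FBLN1, LUM and DCN had means of 147 to 198 CPM, and their relation to IGF2 without the collagens was not tested. For both coefficients the values below refer to this sum. The permutation p was 1e-05 for r and for rho, the smallest that these resamples can give, and the adjusted p was 0.00042. Without the 2 calves farthest from the median of the marker sum r was 0.82, and with any 1 calf left out it stayed between 0.83 and 0.88. It was 0.77 within lane 6 and 0.76 within lane 7 (n = 11 each), and lane 1 held too few calves. The value in lane 6 rested on the calf TRT12_C 4, with 868.3 CPM of IGF2 and 18541 CPM of fibroblast markers: without it r was 0.19 (n = 10). After the lane means were taken out of both measures r was 0.74.

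**Figure D3:**
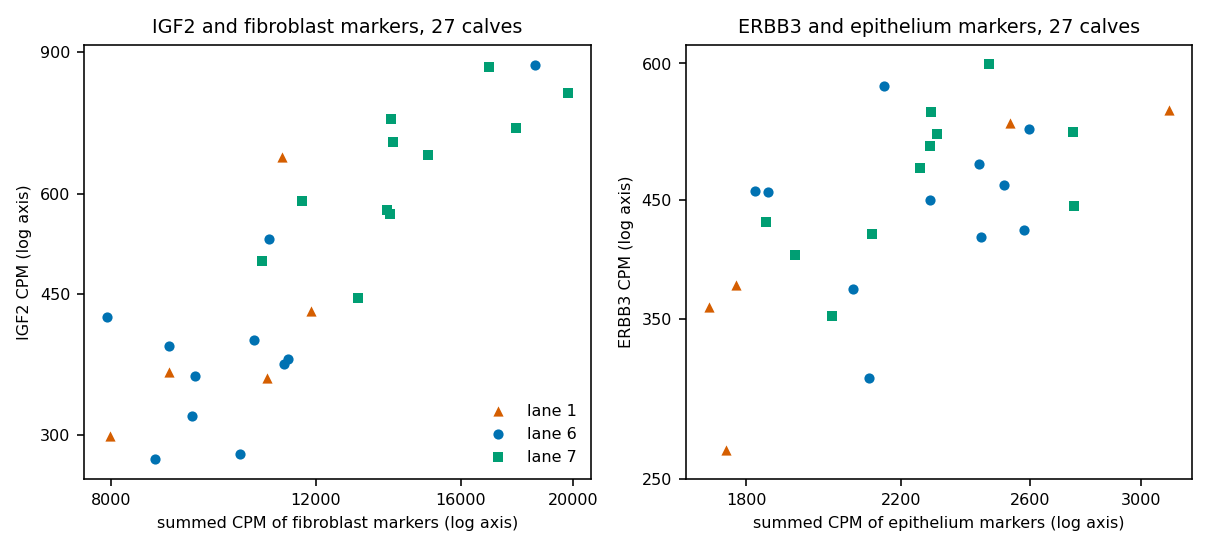
IGF2 against the summed fibroblast markers (left) and ERBB3 against the summed epithelium markers (right) in CPM on log axes, 1 point per calf with symbols for the lane. The 27 calves follow a common line more closely on the left (r = 0.85) than on the right (r = 0.60), and most lane 7 calves sit at the upper end on the left.

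The other 4 relations that passed had lower r over all calves. ERBB3 went with the epithelium markers at r = 0.60 (rho = 0.62, permutation p = 0.00074, adjusted p = 0.00777) over 27 calves, 0.55 without the 2 farthest calves. Within lanes r was 0.18 in lane 6 and 0.59 in lane 7. IGF2R went with the endothelium markers at r = 0.66 (rho = 0.69, permutation p = 0.00018, adjusted p = 0.00378), 0.55 without the 2 farthest calves, 0.72 in lane 6 and 0.45 in lane 7. IGFBP4 went with the endothelium markers at r = 0.64 (rho = 0.66, permutation p = 0.00045, adjusted p = 0.0063), 0.63 without the 2 farthest calves, 0.59 in lane 6 and 0.28 in lane 7. Its relation to the fibroblast markers had r = 0.60 (rho = 0.58, permutation p = 0.001, adjusted p = 0.0084), 0.53 without the 2 farthest calves, 0.46 in lane 6 and 0.60 in lane 7. The endothelium list rests on 3 of 6 markers. ERBB2 and the epithelium markers, at r = 0.48, missed the threshold (adjusted p = 0.0658, permutation test), as did INSR and IGFBP3 with each of the 6 lists. Each gene and each marker sum of a calf is divided by the same library total, which the points of these relations share. With CPM scaled by edgeR's TMM factors, 9 relations passed in place of 5, ERBB3 with epithelium rose to 0.73, and IGFBP4 with endothelium fell to 0.41 (adjusted p = 0.103, permutation test). Over the alternatives the adjusted p of that relation ranged from 0.00277 to 0.103. With the lane means taken out, 7 of the 42 relations passed, of which 2 were negative, ERBB3 with fibroblast (r = -0.60) and IGF2 with epithelium (r = -0.50). IGF2R with endothelium (r = 0.45) and IGFBP4 with fibroblast (r = 0.35) then missed the threshold, at adjusted p of 0.0906 and 0.216 (permutation test). Within lanes ERBB3 with fibroblast had r = -0.75 in lane 6 and -0.38 in lane 7, and the value in lane 6 was -0.37 without TRT12_C 4 (n = 10).

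Between the 7 genes there were 21 relations, of which 11 passed an adjusted p of 0.05, all positive. The share of other pairs of genes that would pass was not computed, and all pairs share library totals and lanes. Each of the 7 genes had a higher r with some gene outside the set, as given below, than with any of the other 6. The highest were IGF2R with INSR (r = 0.75, rho = 0.58), IGF2R with ERBB2 (r = 0.74, rho = 0.71) and ERBB2 with ERBB3 (r = 0.74, rho = 0.60), each with a permutation p adjusted over the 21 of 0.00028. IGF2 passed with none of the other 6 genes: its r ranged from -0.18 with ERBB3 to 0.41 with IGFBP4. The number that passed turned on 1 calf. Without TRT12_H 1, a lane 1 calf with 1314579 counts that was the lowest of all 27 for IGF2R (128.6 CPM), INSR (33.5), IGFBP3 (84.4), ERBB2 (95.1) and ERBB3 (265.5), 4 of the 21 relations passed instead of 11. These 4 were IGF2R with INSR (r = 0.63), IGF2R with ERBB2 (0.64), ERBB2 with ERBB3 (0.64) and IGF2R with IGFBP4 (0.63). The last of these, at r = 0.48 over all 27 calves, was lost with TMM-scaled CPM (r = 0.27, adjusted p = 0.343) and after the lane means were taken out (r = 0.20, adjusted p = 0.432, permutation tests), while the other 3 passed in both. The same calf was not low for IGFBP4, at 237.3 CPM.

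Within lanes the receptor relations differed. ERBB2 with ERBB3, the pair that forms a signalling dimer, had r = 0.58 in lane 6 and 0.48 in lane 7, although without TRT12_C 4 the value in lane 6 was 0.06 (n = 10). IGF2R with INSR had r = 0.32 in lane 6 and 0.46 in lane 7. IGF2R with ERBB2 had r = -0.03 in lane 6 and 0.76 in lane 7, so the pooled value was not seen in lane 6. Without the 2 calves farthest from the median of the other gene, the 3 values were 0.56, 0.65 and 0.62. With the lane means taken out, 7 of the 21 relations passed, of which 1 was negative, IGF2 with ERBB3 (r = -0.46, adjusted p = 0.0469, permutation test). Its r was -0.68 in lane 6 and -0.29 in lane 7, and the value in lane 6 was -0.21 without TRT12_C 4 (n = 10). In lane 6 IGF2 and ERBB2 ran in opposite directions (r = -0.87, n = 11, and -0.66 without TRT12_C 4), while over all calves r was 0.06 and in lane 7 it was 0.05.

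**Figure D4:**
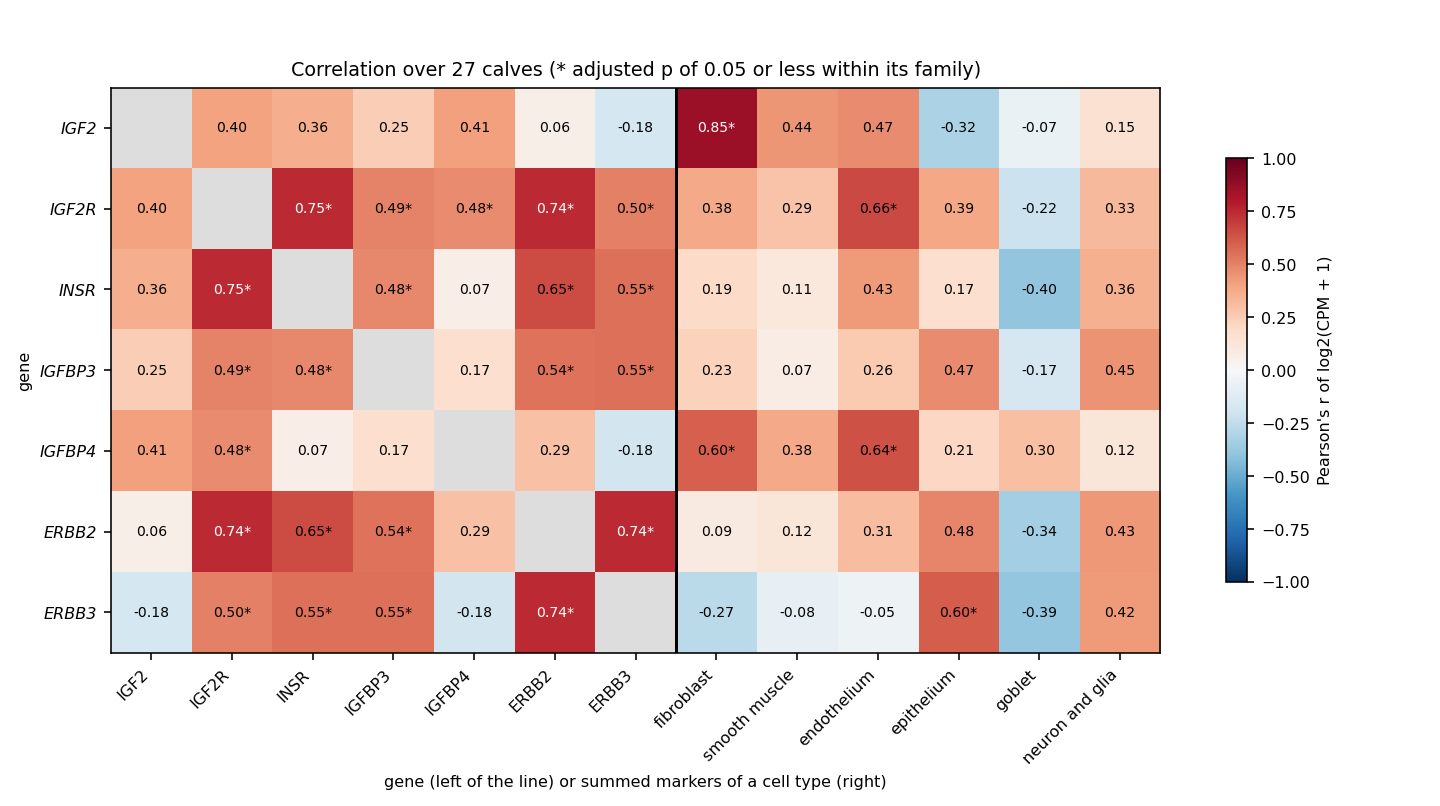
Pearson's r of log2(CPM + 1) over the 27 calves between the 7 genes (left of the line) and between each gene and the summed markers of 6 cell types (right). The cell of IGF2 with fibroblast markers holds the highest value, 0.85, and the IGF2 row has no starred gene among the other 6.

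The genes whose levels over the 27 calves were most like those of each gene were listed as a description, among all 13943 genes tested. For IGF2 these were ENSBTAG00000010179 (r = 0.87), ENSBTAG00000006234 (r = 0.86) and FBN1 (r = 0.85), which encodes the microfibril protein fibrillin. For ERBB3 they included SLC7A8 (r = 0.82), an amino acid transporter, and TMEM45B (r = 0.81). ERBB2 was closest to SLC3A2 (r = 0.80), the heavy chain of amino acid transporters, to UNC5B (r = 0.79), a netrin receptor, and to DDR1 (r = 0.78), a collagen receptor kinase. PTPRF (r = 0.86), a receptor tyrosine phosphatase, was closest to IGF2R. IGFBP4 was closest to APOE (r = 0.89), the lipid carrier apolipoprotein E, ENSBTAG00000020366 (r = 0.87) and RPL13 (r = 0.86), a ribosomal protein. IGFBP3 had the loosest match, ENSBTAG00000009526 at r = 0.71, and that of INSR was ENSBTAG00000004710 at r = 0.84. These points share library totals and lanes.

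Other genes of the same pathways were read from fixed lists, of which only a part had identifiers. On the IGF and growth hormone list 3 of 15 genes were measured, from PAPPA2, a protease that cleaves IGF-binding proteins, and IGF2BP1 (5.53 ± 2.37 CPM) to IGFBP7 (105 ± 16.4 CPM). None of the 3 was called by edgeR in the 3 comparisons of treatments or in C vs. H. PAPPA2 had 2.32 to 6.34 CPM in TRT0 (median 3.97), 3.01 to 7.81 in TRT6 (median 5.42) and 4.28 to 11.5 in TRT12 (median 7.33). The ranges of TRT12 and TRT0 overlapped. With 1 CPM resting on about 1 to 4 reads, these values rest on few reads. Its log2 fold change in TRT12 vs. TRT0 was 0.80 (SE 0.24), with an unadjusted p of 0.00221, a level under 0.05 that 9.37% of all genes reached, and an edgeR adjusted p of 0.410. With the lane in the fit it was 0.73, and with any 1 calf left out it stayed between 0.70 and 0.90.

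For the EGF family, 3 of 12 ligands and regulators were measured, from AREG, the ligand amphiregulin, at 4.01 ± 2.29 CPM to LRIG1, which limits ERBB receptors, at 88.3 ± 22.0 CPM (SD, n = 27). Of the adaptors and kinases that act below these receptors 6 of 16 were measured, the highest mean being that of AKT1 (134.3 ± 27.7 CPM), a kinase that PI3K activates. Of the ERK response genes 1 of 10 was measured, JUN (95.6 ± 27.7 CPM), and 4 of 12 other growth factor receptors, from PDGFRB (93.3 ± 16.0 CPM) to PDGFRA (216.5 ± 24.8 CPM), the receptors of platelet-derived growth factors. None of these 14 genes was called in the same 4 comparisons by edgeR, where 0% of all genes were called, and 1 had an unadjusted p under 0.05 in any of them. This was PDGFRB in TRT12 vs. TRT6, where 3.14% of all genes reached that level, with a log2 fold change of -0.19 (SE 0.09, adjusted p = 0.9997 by edgeR). PDGFRB had 56.4 to 107.3 CPM in TRT12 and 75.5 to 123.6 in TRT6. None of the 7 genes on a list of imprinted growth genes had an identifier.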

How the data were processed

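Colon RNA of 27 calves was sequenced as 27 libraries, 1 per calf, each taken as a replicate. After Illumina's chastity filter the authors aligned reads with TopHat2 2.1.1 to UMD 3.1, sorted them with SAMtools 1.4 and counted them per Ensembl gene with HTSeq, without reads that matched several genes. They deposited raw counts, whole numbers per gene and calf with no normalization. The strand setting is not given in the sources used here, so overlapping or antisense genes are uncertain, and a gene with a near-identical copy may be undercounted. Treatment came from the labels. Dam parity came from the sample table of the study, since the deposited columns carry no parity, and lane from the library run names.

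CPM was computed over the gene counts of each calf (1163791 to 4202593, so 1 CPM rests on about 1 to 4 reads). Genes at 1 CPM or more in at least 5 of 9 calves of each treatment (13943) were tested with edgeR 4.0.16 in R 4.3.3, by the quasi-likelihood test on all 27 calves, with TMM factors of 0.886 to 1.15. The fits were treatment plus parity for the 4 overall contrasts, 6 group means for the other 9 and the interaction, hours plus parity for the slope, and lane added to treatment and parity. The SE of a log2 fold change was its absolute value over the square root of the F statistic, and intervals used the t quantile of the fit. Calls needed an adjusted p (Benjamini-Hochberg over all genes) of 0.10 and a fold change of 1.2, and the interaction and lane the adjusted p alone. A single value was compared with an exact permutation test. Correlations used log2(CPM + 1) and 100000 permutations. Python 3.11.15 with numpy 2.4.6, scipy 1.17.1, pandas 2.3.3 and matplotlib 3.10.9 was used, and the tests were tested on simulated data.

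Symbols were matched through the gene tables of the study, in the part used here, which name 4044 identifiers. Members, lists, tests and the naming rule were chosen with earlier results of these data known. The genes named are the 7 members, the 3 genes most correlated with each (not all are given), the highest and lowest gene by mean CPM of each pathway list (some are not reported here), and list genes with an unadjusted p under 0.05 in an overall contrast. Calves are numbered within their group. Alternatives were the likelihood ratio test, DESeq2 1.42.0, other scalings and filters, lane as a term, the compared groups only, an adjusted p of 0.05, each calf left out in turn and, for correlations, residuals after lane or group means. A fit without parity, and correlations with each calf left out, were added after the data had been seen. Sequences and genome positions are not used here.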

Additional observations from a re-analysis of the deposited data

Results flagged for a closer look

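In 63 sets of 4 to 9 calves (7 genes in 3 treatments and 6 groups), 5 had a highest or lowest calf set apart from the rest by more than Dixon's 95% critical value, where chance sets apart about 1 in 20. The sets are not separate draws, since the 6 groups lie within the 3 treatments and the same calves give all genes. IGF2R in TRT0_H had its lowest calf, TRT0_H 2, at 187.162 CPM, with the other 3 at 237.4 to 238.5 CPM. IGFBP3 in TRT0_H had its highest calf, TRT0_H 4, at 180.844 CPM, with the next at 111.6 CPM. INSR in TRT12 had its lowest calf, TRT12_H 1, at 33.4708 CPM, with the next at 57.8 CPM. The same calf was lowest for ERBB2 in TRT12_H, at 95.0875 CPM, with the next at 149.2 CPM. ERBB2 in TRT6 had its highest calf, TRT6_C 5, at 187.319 CPM, with the next at 162.0 CPM. TRT12_H 1 and TRT6_C 5 were both in lane 1 and had low totals of 1314579 and 1163791 counts. Whether lane or depth had a part in these values was not tested.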

How the results depend on the processing

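The count of called members stayed at 0 in all 13 contrasts, the interaction and the slope under every alternative run. For lane it was 0, and 1 with the likelihood ratio test, DESeq2, no TMM factors or no filter, and it ranged from 0 to 2 with each calf left out. The share of all genes called for lane was counted only in the main fit, at 2.41%. Relations to cell type markers past the threshold numbered 5, and 9 with TMM factors, 8 after the means of the 6 groups and 7, of which 2 negative, after the lane means. Relations between members numbered 11, and 7, of which 1 negative, after the lane means and 4 to 13 with each calf left out. For both kinds of relation the share over other genes was not computed. Log2 fold changes near 0 changed sign, the cause of which was not tested. Without TMM factors this held in TRT6 vs. TRT0 for INSR (-0.0129), ERBB2 (-0.0311) and ERBB3 (-0.0416), in C vs. H for IGF2 (0.0471), ERBB2 (0.0360) and ERBB3 (0.0515), and in TRT12_C vs. TRT0_C for IGF2 (-0.0214). With no filter it held in TRT6 vs. TRT0 for ERBB2 (-0.000602) and ERBB3 (-0.0054). With lane as a term it held in TRT6 vs. TRT0 for IGFBP3 (0.0284) and ERBB3 (-0.0167), in TRT12 vs. TRT0 for IGFBP4 (0.00222), and in C vs. H for IGF2 (0.0528) and ERBB3 (0.00531). With each calf left out, TRT6 vs. TRT0 ranged from -0.0105 to 0.0563 for INSR, -0.0621 to 0.0913 for IGFBP3, -0.0393 to 0.0466 for ERBB2 and -0.0322 to 0.0597 for ERBB3. TRT12 vs. TRT0 ranged from -0.14 to 0.0198 for INSR, -0.11 to 0.00581 for IGFBP4 and -0.0923 to 0.0643 for ERBB3. C vs. H ranged from -0.0598 to 0.0602 for INSR, -0.0730 to 0.0971 for IGF2, -0.0357 to 0.0957 for IGFBP3, -0.0627 to 0.0178 for ERBB2 and -0.0613 to 0.0573 for ERBB3, and TRT12_C vs. TRT0_C from -0.12 to 0.11 for IGF2. No paired analysis was possible because replicate numbers only name the calves. The order of members by level per length was not run, as no transcript lengths were used. Counting error alone would give INSR, with the lowest counts of the members, a coefficient of variation of 8.57%, against 17.2% measured. Groups of 4 or 5 calves left wide intervals for IGF2.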
